A study of Homo sapiens and Pan troglodytes with 11 samples.

Results

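TENM3 and DCTD are the pair of neighbouring chromosome 4 genes among the 24 genes that a probe-based single-cell assay counted in human and chimpanzee neurons. They were taken by name, as 2 of the 7 genes whose probes were in all 11 libraries, and gave 811466 and 686904 UMIs (unique molecular identifiers, each counting 1 captured molecule). The series asks what human accelerated regions, sequences conserved in other vertebrates but with many human-specific changes, do in 2-week-old excitatory neurons. Human neurons came from WTC11, an induced pluripotent stem cell line, in 6 libraries with 20278 cells, and chimpanzee neurons from the line C3649 in 5 libraries with 21672 cells. All libraries are from CRISPR interference screens, in which a Cas9 that cannot cut carries a repressor to the site its guide RNA matches, and no library without it was compared. Each species is 1 line, so species and line cannot be told apart. A cell's guide is read through a guide barcode, and the barcode names show neither target nor control.

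Teneurins are large transmembrane proteins that bind each other and latrophilin receptors across the gap between cells, and TENM3 takes part in matching synaptic partners in developing circuits. DCTD, dCMP deaminase, is a cytosolic enzyme that turns dCMP into dUMP, the substrate from which thymidylate synthase makes the thymidine nucleotide needed for DNA. Of 7 listed teneurins and latrophilins only TENM3 was measured, and of 10 listed genes of pyrimidine deoxynucleotide synthesis only DCTD, so neither pathway can be described beyond its 1 member. None of 20 listed cell type markers was on a panel, so the label of excitatory neurons could not be checked in the counts.

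In the GENCODE 29 annotation of GRCh38, TENM3 spans chr4:182143987-182803024 on the plus strand, 659 kb with protein-coding transcripts of up to 28 exons. DCTD spans chr4:182890060-182917936 on the minus strand, 27.9 kb with up to 7 exons. The genes are transcribed toward each other and end 87.0 kb apart, with 1 annotated gene, the long intergenic non-coding RNA AC079766.1, and 0 protein-coding genes between them. Their outermost starts are 774 kb apart. The submitters' processing notes name the same build, hg38. The 250 bases before a RefSeq start of each gene are shown because interference acts at such sites when it represses a gene directly. The TENM3 window is GRCh38.p14 chr4:182143713-182143962, plus strand. The DCTD window is chr4:182917612-182917861, minus strand, inside the outer bounds of the gene in GENCODE but in no annotated exon of it. Both run 5′ to 3′ from the RefSeq table, and capitals mark the GC box (GGGCGG or, on the other strand, CCGCCC) and the CCAAT box (CCAAT or ATTGG).
TENM3 promoter: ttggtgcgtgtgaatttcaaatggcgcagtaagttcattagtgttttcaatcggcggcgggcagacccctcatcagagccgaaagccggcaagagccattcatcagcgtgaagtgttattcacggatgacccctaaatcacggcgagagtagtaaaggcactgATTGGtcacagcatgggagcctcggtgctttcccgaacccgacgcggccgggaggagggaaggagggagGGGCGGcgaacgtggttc
DCTD promoter: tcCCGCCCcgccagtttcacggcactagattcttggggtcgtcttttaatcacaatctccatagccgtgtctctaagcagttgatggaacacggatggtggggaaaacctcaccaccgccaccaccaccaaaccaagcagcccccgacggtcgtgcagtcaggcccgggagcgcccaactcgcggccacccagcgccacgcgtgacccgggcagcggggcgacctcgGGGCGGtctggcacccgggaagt
The TENM3 window is 56.8% G or C with 1 GC box and 1 CCAAT box, and the DCTD window 64.8% with 2 GC boxes. Among 35116 RefSeq windows of this length the median was 58.0% G or C, 42.6% held a GC box and 32.0% a CCAAT box. Neither window held TATAAA or its complement TTTATA, which 10.7% of the windows do. These are matches of letters only. Each gene has another RefSeq start, for TENM3 305 kb downstream, whose window overlaps exons of the gene and is not printed. Those windows are richer in G or C, at 77.2% for TENM3 and 80.0% for DCTD. Which start is used in these neurons was not tested.

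The deposited tables came with 2 probe panels, called panel 1 (10 genes, in human 1, 2, 3 and 6 and chimpanzee 1, 2 and 5) and panel 2 (21 genes, in human 4 and 5 and chimpanzee 3 and 4) here. Beside TENM3 and DCTD, the genes on both panels were AKAP6, ARHGAP5, BAZ1A, NPAS3 and PSMA6. Libraries held 420217 to 1818477 gene UMIs, and the median cell of a library held 28 to 272 UMIs of the 7 genes. Human 6 and chimpanzee 5 stood apart: 3 and 6 of their cells could be assigned a guide, against 11.7% to 32.9% of cells in the other 9 libraries. Guide UMIs were not missing there, with 4569168 in human 6, the most of all libraries, and 1795814 in chimpanzee 5. Few assigned cells therefore do not mean few guides, and why assignment failed in these libraries was not tested. Cell barcodes were shared between libraries far more in screen replicate 2 than in screen replicate 1: chimpanzee 4 and 5 had 1436 in common, human 4 and 5 had 1060, and human 4 and chimpanzee 3 had 1003. In all, 2937 barcodes occurred in more than 1 library, so the comparisons between species, the guide fits and the values by depth, AKAP6 share and guide assignment within a library were also computed without them. Probe sequences were not analysed here, so a better or worse match of a probe to chimpanzee transcripts cannot be told apart from a difference in level. The number of probes per gene is likewise not known here, so levels are compared between libraries and not between genes. The labels do not say that libraries are separate cultures, so p-values measure the spread between libraries, which may be technical.

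TENM3 made up a larger share of the UMIs of the 7 genes in every chimpanzee library than in any human library, while the shares of DCTD, next to it on the chromosome, overlapped between the species. TENM3 held 12.9%, 12.6%, 14.4%, 13.9%, 13.7% and 13.6% in human 1 to 6, a mean of 13.5% ± 0.65 (SD, n = 6). In chimpanzee 1 to 5 it held 21.2%, 20.4%, 21.9%, 24.0% and 22.4%, a mean of 22.0% ± 1.37 (SD, n = 5). The lowest chimpanzee library was thus above the highest human one by several SDs, and libraries within a species lay close together. Such a separation was not particular to TENM3. AKAP6 was at least 25.3% in human and at most 23.3% in chimpanzee libraries, and ARHGAP5 at least 9.40% and at most 8.83%. NPAS3 was at most 12.8% in human and at least 15.4% in chimpanzee libraries, whereas BAZ1A and PSMA6 overlapped. DCTD held 17.4%, 15.1%, 14.2%, 14.6%, 14.5% and 15.3% in human 1 to 6, a mean of 15.2% ± 1.13 (SD, n = 6). It held 17.0%, 15.3%, 15.1%, 15.4% and 16.8% in chimpanzee 1 to 5, a mean of 15.9% ± 0.90 (SD, n = 5). The highest DCTD share of all was in human 1 and the lowest in human 3, with all chimpanzee libraries between them.

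**Figure D1:**
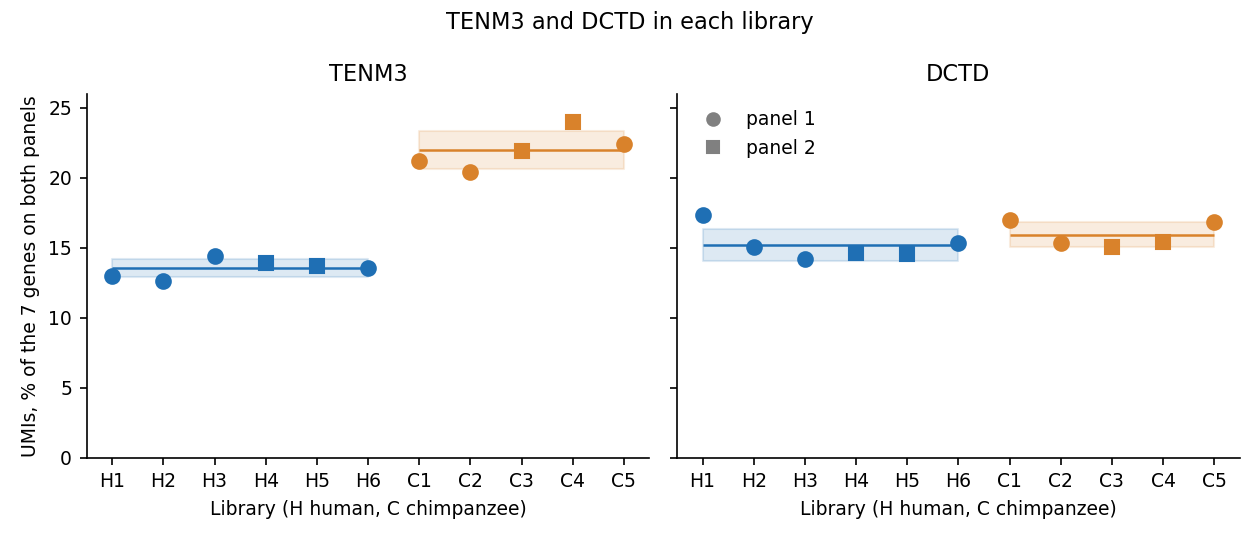
UMIs of TENM3 (left) and DCTD (right) as a percentage of the UMIs of the 7 genes on both panels, by library (H1 to H6 human, blue, and C1 to C5 chimpanzee, orange); circles are panel 1, squares panel 2, lines the species means and bands ± 1 SD over libraries. TENM3 runs from 12.6% to 14.4% in human and from 20.4% to 24.0% in chimpanzee libraries, while the DCTD points of the species overlap.

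The UMIs per cell behind these shares followed the depth of each library. TENM3 had 21.7, 19.0, 20.5, 7.10, 9.47 and 10.03 UMIs per cell on average in human 1 to 6 and 65.7, 26.2, 21.9, 20.3 and 17.1 in chimpanzee 1 to 5. DCTD had 29.1, 22.6, 20.2, 7.46, 10.04 and 11.3 in human and 52.7, 19.7, 15.1, 13.0 and 12.8 in chimpanzee libraries. The raw counts per cell of both genes overlapped between the species, and chimpanzee 1 stood far above the rest for both.

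With the 7 genes fitted together in 11 libraries and their own total as the reference, normalized TENM3 counts were 135 to 156 per 1000 (median 137) in human libraries. They were 213, 205, 201, 223 and 211 in chimpanzee 1 to 5, so the species did not overlap on this scale either. The log2 ratio of human over chimpanzee was -0.59 ± 0.06 (SE; edgeR quasi-likelihood test, adjusted p = 1.47e-06 over 24 genes). Of the 24 genes, those on 1 panel being fitted within that panel, 58.3% passed the threshold of 0.05, 20.8% as lower in human. Within the fit of the 7 genes AKAP6, ARHGAP5, BAZ1A, NPAS3 and PSMA6 passed as well, BAZ1A and NPAS3 as lower in human. A call as such thus did not set TENM3 apart from the other genes on the panels. DCTD, at 142 to 187 per 1000 in human libraries (median 154) and 171, 154, 138, 143 and 159 in chimpanzee 1 to 5, did not pass. Its log2 ratio was 0.04 ± 0.09 (SE; edgeR, adjusted p = 0.720), and both groups covered nearly the same range. Without the cell barcodes found in more than 1 library the log2 ratios were -0.60 for TENM3 and 0.03 for DCTD, and without human 6 and chimpanzee 5 they were -0.58 and 0.06.

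The difference of TENM3 kept its sign and its call with each total tried as the reference, but its size did not stay the same. Against single genes, given below, it did not always pass. It was -0.41 when AKAP6 was left out of the total and -0.70 with plain totals. It reached -0.84 against all 10 genes of panel 1 and -1.07 against all 21 genes of panel 2. GAPDH alone was 67.9% and 45.2% of panel 2 UMIs in human 4 and 5, and 52.6% and 50.4% in chimpanzee 3 and 4. DCTD had no stable direction: 0.22 ± 0.09 (SE; edgeR, adjusted p = 0.0476) without AKAP6 in the total, -0.07 with plain totals, -0.25 in panel 1 (adjusted p = 0.0785) and -0.41 ± 0.17 in panel 2 (adjusted p = 0.0356). On the whole-panel scale TENM3 was 5.13% to 6.96% of panel 1 UMIs in human and 9.74% to 10.8% in chimpanzee libraries, without overlap. DCTD was 6.46% to 7.01% in human and 7.32% to 8.12% in chimpanzee libraries of panel 1, also without overlap. Its fit in panel 1 did not pass. Between human 1 to 3 and chimpanzee 1 and 2, AKAP6, ARHGAP5, BAZ1A, NPAS3 and PUM2 did not overlap on this scale either. LAPTM4A, PSMA6 and RHOB overlapped. Separation was thus common among the 10 genes and not particular to TENM3 or DCTD, and it was not counted over all libraries of panel 1. RHOB alone was 22.0% to 31.5% of panel 1 UMIs in human 1 to 3, and 19.6% and 24.4% in chimpanzee 1 and 2. In panel 2 DCTD was 3.31% and 5.55% in human and 5.26% and 5.60% in chimpanzee libraries, which overlap. Within screens, TENM3 differed by -0.54 ± 0.11 in replicate 1 (SE; edgeR, adjusted p = 0.000833) and by -0.67 ± 0.12 in replicate 2 (adjusted p = 0.000359).

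**Figure D2:**
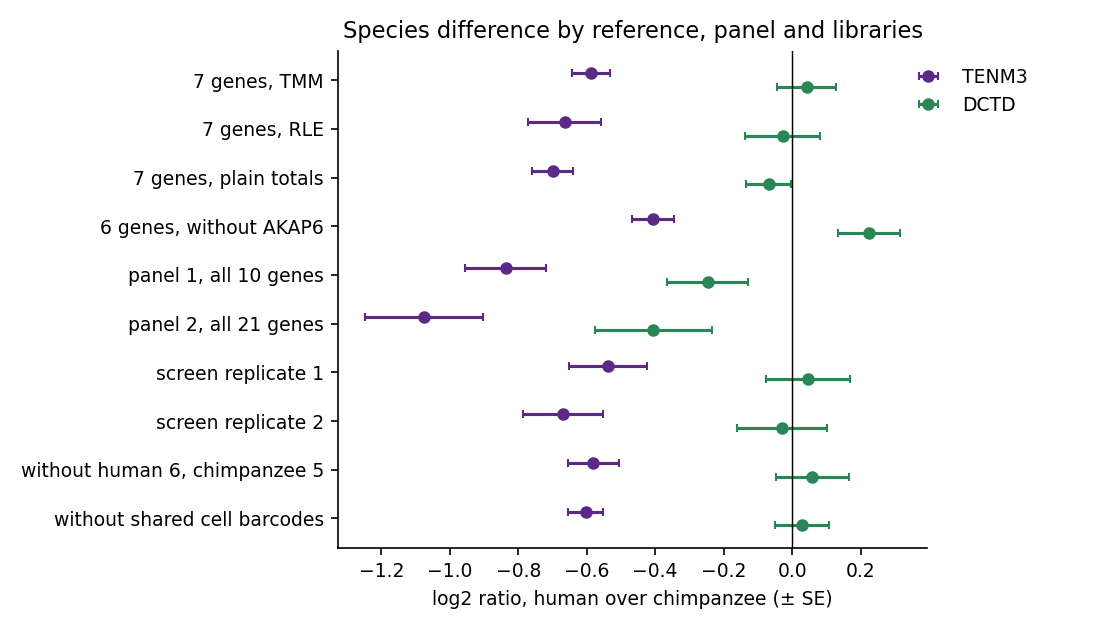
Fitted log2 ratio of human over chimpanzee for TENM3 (purple) and DCTD (green) with its SE, one line per reference set or set of libraries. All TENM3 points lie between -1.07 and -0.41, and the DCTD points fall on both sides of 0, from -0.41 to 0.22.

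A ratio of counts within a library needs no total as a reference. The log2 ratio of TENM3 to DCTD was -0.42, -0.25, 0.02, -0.07, -0.09 and -0.17 in human 1 to 6. It was 0.32, 0.41, 0.54, 0.64 and 0.41 in chimpanzee 1 to 5. Every chimpanzee library lay above every human library, and human 3 was the highest of the human libraries. The mean difference was -0.63 on the log2 scale (two-sided exact permutation test over 462 splits, p = 0.00433, the smallest that 6 against 5 libraries can give, adjusted p = 0.0162 over 56 values tested this way). Of the 21 ratios between genes on both panels 61.9% passed and 52.4% did not overlap between the species, so relative shifts were common among these genes. The difference was -0.58 within screen replicate 1 and -0.64 within screen replicate 2, where 3 against 2 and 3 against 3 libraries cannot give a two-sided p below 0.2 and 0.1. Without cell barcodes found in more than 1 library it was -0.63 as well, and without human 6 and chimpanzee 5 it was -0.64 (exact permutation test, adjusted p = 0.0523, with 126 splits). The last value misses the threshold, and the groups do not overlap.

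Set against the other genes on both panels, the ratio of TENM3 to NPAS3 differed least between the species. NPAS3 encodes a neuronal basic helix-loop-helix PAS transcription factor. The log2 ratio of TENM3 to NPAS3 averaged 0.23 ± 0.08 in human (SD, n = 6) and 0.22 ± 0.17 in chimpanzee libraries (SD, n = 5), a difference of 0.01 (exact permutation test, adjusted p = 0.907). TENM3 to BAZ1A, an accessory subunit of chromatin remodelling complexes, differed by 0.04 (exact permutation test, adjusted p = 0.878), with human values from 0.62 to 1.65 around the chimpanzee range of 0.89 to 1.33. A p above the threshold does not show that these ratios are equal. The ratios of TENM3 to the other 4 genes were all lower in human libraries without overlap. The differences, human minus chimpanzee on the log2 scale, were -1.65 to AKAP6, an anchoring protein for protein kinase A, -1.31 to ARHGAP5 and -1.11 to PSMA6, a subunit of the proteasome core, beside the -0.63 to DCTD. Each of these 4 had the smallest p the exact test can give.

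DCTD lay between the genes that were relatively high in human and those that were relatively high in chimpanzee neurons. Against NPAS3 it was higher in human by 0.64 on the log2 scale, without overlap (exact permutation test, adjusted p = 0.0162). Against AKAP6 its ratio differed by -1.02 (adjusted p = 0.0162) and against ARHGAP5 by -0.68 (exact permutation tests, adjusted p = 0.0269), the latter with overlapping groups. The differences to PSMA6 (-0.48, adjusted p = 0.0771) and BAZ1A (0.67, adjusted p = 0.105, exact permutation tests) did not pass. In all, 4 of the 6 ratios of TENM3 passed, all as lower in human, and 4 of those of DCTD, 2 in each direction, beside the 61.9% of all 21 ratios that passed.

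**Figure D3:**
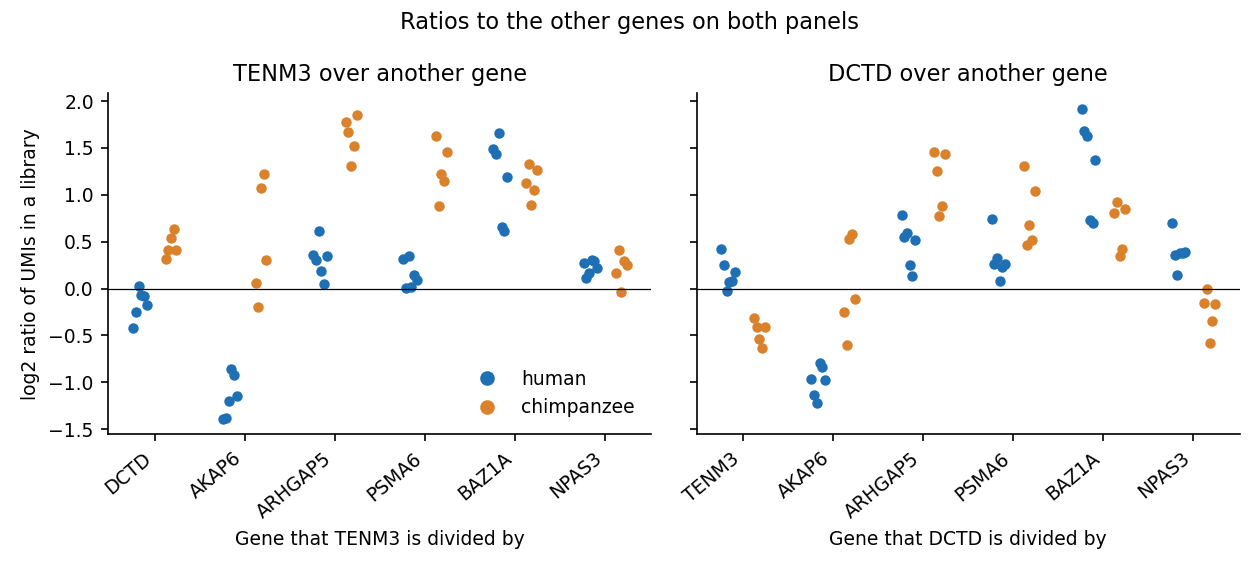
log2 ratio of UMIs of TENM3 (left) and DCTD (right) to each of the other 6 genes on both panels, 1 point per library, human in blue and chimpanzee in orange. The species separate for TENM3 over DCTD, AKAP6, ARHGAP5 and PSMA6 and overlap for TENM3 over BAZ1A and NPAS3.

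Nearly all cells carried both transcripts. At the depth as deposited, 94.6% of human 4 cells held a TENM3 UMI (95% exact Clopper-Pearson interval 93.8% to 95.3%) and 94.8% a DCTD UMI (94.1% to 95.5%), the lowest of all libraries. These intervals cover counting error only. Human 4 also had the shallowest cells, with a median of 28 UMIs of the 7 genes. In the other 10 libraries 99.1% to 100% of cells had a TENM3 UMI and 99.5% to 100% a DCTD UMI. No cell type that should lack either gene was identified here, so a background share from free RNA could not be set beside these values. To compare libraries of unlike depth, cells were thinned to 30 UMIs of the 7 genes, which left out 2010 human 4 cells under that depth.

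After thinning, the share of cells with a TENM3 UMI was 97.9%, 97.9%, 98.7%, 98.0%, 98.1% and 98.6% in human 1 to 6. It was 99.8%, 99.5%, 99.7%, 99.7% and 99.9% in chimpanzee 1 to 5. The groups did not overlap, and the difference of the means of 98.2% and 99.7% was -1.52 percentage points, human minus chimpanzee (exact permutation test, adjusted p = 0.0162). Of the 7 genes 71.4% passed on this measure, and 42.9% did not overlap. For DCTD the means were 99.0% and 99.1% (exact permutation test, adjusted p = 0.861), with human libraries from 98.7% to 99.6% and chimpanzee libraries from 98.7% to 99.5%. Both genes are so close to 100% that this measure says little beyond the shares. At 15 UMIs TENM3 was detected in 86.1% to 89.3% of human and 94.9% to 97.4% of chimpanzee cells. Without cell barcodes found in more than 1 library the TENM3 difference at 30 UMIs was -1.54 percentage points.

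Cells of 1 library differed in their shares of both genes by more than counting noise. The spread between cells was measured as the coefficient of variation (CV, SD over mean) of a gene's share of a cell's UMIs of the 7 genes, with counting noise removed and cells under 20 such UMIs left out. For TENM3 the CV was 0.179, 0.173, 0.176, 0.254, 0.245 and 0.116 in human 1 to 6, and 0.207, 0.265, 0.278, 0.311 and 0.106 in chimpanzee 1 to 5. For DCTD it was 0.131, 0.132, 0.120, 0.194, 0.187 and 0.0800 in human and 0.156, 0.173, 0.225, 0.242 and 0.103 in chimpanzee libraries. TENM3 varied more than DCTD in 11 of 11 libraries. Over libraries DCTD had the lowest median CV of the 7 genes, 0.156, and TENM3 the third lowest, 0.207, against 0.347 for BAZ1A at the top. The mean CVs of human and chimpanzee libraries did not pass the test, at 0.190 and 0.233 for TENM3 (exact permutation test, adjusted p = 0.453) and 0.141 and 0.180 for DCTD (exact permutation test, adjusted p = 0.326). On this measure 14.3% of the 7 genes passed. With species permuted only within libraries of 1 screen and panel (120 splits), a replicate block, the DCTD difference of -0.04 passed (exact permutation test, adjusted p = 0.0424) and the TENM3 difference of -0.04 did not (adjusted p = 0.0667). The species ranges overlapped for both genes, and the lowest values came from human 6 and chimpanzee 5, where almost no cell could be assigned a guide. In these 2 libraries the CV of all 7 genes was below that of each other library of the species. Without them the differences were -0.06 for TENM3 and -0.05 for DCTD, human minus chimpanzee (exact permutation tests, adjusted p = 0.171 and 0.172). With cell barcodes found in more than 1 library left out they were -0.04 and -0.03. As shares of all genes of the panel, a total whose largest part in panel 2 is GAPDH, both turned positive, to 0.03 and 0.10.

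Whether the pair varied together between cells depended on the total that the shares were taken of. As shares of the 7 genes, with counting noise removed, TENM3 and DCTD correlated between cells at -0.01, 0.00, -0.03, -0.07, 0.05 and 0.27 in human 1 to 6. The correlation was 0.25, -0.18, 0.16, 0.07 and 0.66 in chimpanzee 1 to 5. As shares of all genes of the panel it was higher, with means of 0.40 over human libraries (0.16 to 0.78) and 0.38 over chimpanzee libraries (0.17 to 0.68). In panel 2 the largest part of that total is GAPDH, and other pairs are not given on this scale. With the 7 genes as the total, the values lay near 0 in human 1 to 5, and the highest of each species was again in human 6 and chimpanzee 5. With AKAP6 left out of the shares, human 6 fell to -0.13, within the range of -0.19 to 0.05 of the other human libraries, and chimpanzee 5 stayed the highest at 0.54. The points of a correlation are cells of 1 library (1199 to 7562 cells), and shares of 1 total are pulled toward negative values. Its median over libraries was 0.05, and it ranked between the second and the 14th of the 21 pairs in a library. The species means of 0.04 and 0.19 did not pass (exact permutation test, adjusted p = 0.453), on a measure where 9.52% of pairs did and 4.76% did not overlap. The median over libraries was -0.04 without AKAP6. The difference in means, human minus chimpanzee, was -0.16, and -0.14 without cell barcodes found in more than 1 library. It was -0.085 without human 6 and chimpanzee 5, and ran from -0.25 without chimpanzee 2 to -0.04 without chimpanzee 5 when 1 library was left out. Raw UMIs of the pair correlated at Pearson's r of 0.62 to 0.87, a value that also contains the depth of each cell. The median of the 21 pairs in a library was 0.53 to 0.74. The pair ranked highest in human 4 and 5 and in chimpanzee 1, 3, 4 and 5, and lowest, at 13 of 21, in human 3.

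By median correlation over the 11 libraries, the genes most like TENM3 were DCTD (0.05) and BAZ1A (-0.07), and those most like DCTD were BAZ1A (0.07) and TENM3 (0.05). Without AKAP6 in the shares DCTD stayed the first for TENM3 (-0.04) and BAZ1A fell to the third (-0.29). For DCTD, PSMA6 then came first (-0.02), TENM3 the second (-0.04) and BAZ1A the fourth (-0.26), so the likeness to BAZ1A depends on AKAP6 being in the total. With the 7 genes as the total these values are near 0, and they range from -0.74 to 0.16 over libraries for TENM3 with BAZ1A and from -0.49 to 0.18 for DCTD with BAZ1A. The sign was the same in all libraries for 1 partner only: AKAP6 was negative in 11 of 11 libraries with TENM3 (median -0.45) and in 11 of 11 with DCTD (median -0.29). A large share of 1 gene leaves less for the others. Cells were therefore ranked by their AKAP6 share, and TENM3 and DCTD were counted as shares of the other 6 genes. Between the 25% of cells with the highest and the 25% with the lowest AKAP6 share, TENM3 differed by -0.28 to 0.27 on the log2 scale over libraries, below 0 in all 5 chimpanzee libraries and in 3 of 6 human ones. DCTD differed by -0.05 to 0.48, and was higher in cells rich in AKAP6 in 10 of 11 libraries. Without the cell barcodes found in more than 1 library these ranges were -0.31 to 0.31 and -0.03 to 0.48, with the same counts of libraries.

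**Figure D4:**
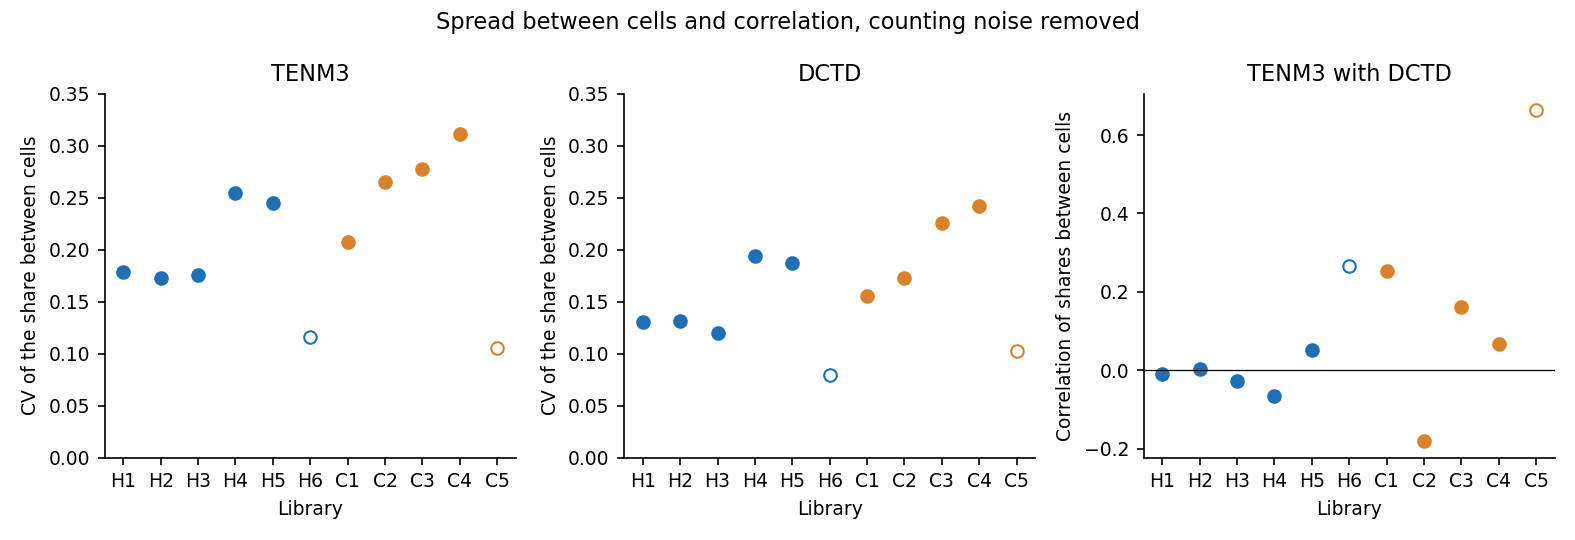
Coefficient of variation between cells of the TENM3 share (left) and the DCTD share (middle), and correlation between cells of both shares (right), by library, human in blue and chimpanzee in orange, with human 6 and chimpanzee 5 as open circles. The open circles hold the lowest CVs, 0.0800 to 0.116, and the highest correlation of each species, 0.27 and 0.66.

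The species difference in the pair was present across the cells of a library. Among cells with at least 10 UMIs of the pair, TENM3 made up on average 42.5%, 45.5%, 49.9%, 48.2%, 48.3% and 47.1% of the pair's UMIs in human 1 to 6. It made up 55.0%, 55.8%, 58.5%, 59.6% and 57.1% in chimpanzee 1 to 5. Every chimpanzee library was again above every human library. Counting noise removed, cells of 1 library spread around these means with an SD of 2.01 to 8.45 percentage points, and, as a comparison between libraries only, more TENM3 than DCTD UMIs were seen in 17.96% to 46.2% of human cells (median 37.6%) and in 75.8%, 68.8%, 75.1%, 75.2% and 72.8% of the cells of chimpanzee 1 to 5. The distance between the species held at either end of the depth range. In the 25% of cells with fewest UMIs the log2 ratio of TENM3 to DCTD was -0.43 to -0.02 in human and 0.21 to 0.46 in chimpanzee libraries. In the 25% with most it was -0.41 to 0.05 and 0.34 to 0.69. Deeper cells held slightly more TENM3 as a share of the 7 genes, in 10 of 11 libraries, by -0.03 to 0.19 on the log2 scale, whereas DCTD had no common direction (-0.12 to 0.14). Without the cell barcodes found in more than 1 library, TENM3 made up 42.5% to 49.9% of the pair in human and 55.0% to 59.5% in chimpanzee libraries. The log2 ratio was then -0.44 to 0.005 and 0.20 to 0.47 in the cells with fewest UMIs, and -0.41 to 0.05 and 0.34 to 0.71 in those with most.

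The guide barcodes ask whether TENM3 or DCTD changes in cells that carry a given guide. Neither gene passed the test with any barcode in either species. There were 2503 assigned human cells in 5 libraries and 3169 assigned chimpanzee cells in 4, and the reference for a barcode was the rest of the assigned cells in its library. In human neurons 0 of 44 pairs of a barcode with TENM3 or DCTD passed, beside 0% of 202 pairs over all genes (edgeR, adjusted over 202 pairs). At an unadjusted p under 0.05 there were 3 of these 44, beside 6.93% of all pairs by edgeR, and 0 of 44 by DESeq2, beside 2.48%. In chimpanzee neurons 0 of 48 pairs passed, beside 0% of 168 pairs. At an unadjusted p under 0.05 edgeR gave 1 of these 48, beside 8.33% of all pairs, and DESeq2 gave 2, beside 7.74%. The sizes were small: TENM3 ran from -0.13 to 0.16 on the log2 scale over 22 barcodes in human and from -0.21 to 0.15 over 24 in chimpanzee cells, with median SEs of 0.06 and 0.07. DCTD ran from -0.11 to 0.12 and from -0.11 to 0.14, with median SEs of 0.06 and 0.08. Of these 92 values, 91 were within 0.2 of 0. At these SEs smaller effects could not have been told from 0, and a barcode whose guide acts on neither gene is not known here as a control.

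In human neurons the smallest p for both genes belonged to SplintRbar14 (121 cells). TENM3 was 13.7%, 14.1%, 16.2%, 16.0% and 15.1% of the 7 genes' UMIs in its cells of human 1 to 5, against 13.4%, 13.6%, 14.6%, 14.7% and 14.2% in the other assigned cells. It was higher in 5 of 5 libraries, by 0.11 ± 0.02 on the log2 scale (SE; edgeR, unadjusted p = 0.00229, adjusted p = 0.248). DCTD with the same barcode was 17.9%, 17.6%, 15.2%, 15.6% and 15.4%, against 17.6%, 15.1%, 14.2%, 14.6% and 15.4%, a difference of 0.10 ± 0.04 (SE; edgeR, adjusted p = 0.641). In human 5 these DCTD shares were equal to 3 digits, and in the other 4 libraries the barcode's cells were higher. Neither passed over all pairs. In chimpanzee cells this barcode gave -0.01 ± 0.12 for TENM3 and -0.05 ± 0.13 for DCTD (SE), and the difference between the species did not pass (edgeR interaction, adjusted p = 0.726 for both genes). The other barcodes with the smallest p in human cells were SplintRbar22 (-0.13 ± 0.06, SE, lower in 4 of 5 libraries) and SplintRbar11 (0.07 ± 0.05) for TENM3. For DCTD they were SplintRbar10 (-0.09 ± 0.04, lower in 5 of 5 libraries) and Brainbar5 (-0.11 ± 0.05, lower in 3 of 5). Single libraries weighed on 3 of these: without human 4 SplintRbar22 gave -0.065, without human 5 SplintRbar11 gave 0.029, and without human 1 Brainbar5 gave -0.046.

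In chimpanzee neurons TENM3 had its smallest p with SplintRbar9, at 0.15 ± 0.11 (SE; edgeR, adjusted p = 0.884) and higher in 4 of 4 libraries. SplintRbar30 gave -0.21 ± 0.17 in 3 libraries and SplintRbar26 -0.04 ± 0.03. By plain shares SplintRbar30 was -0.36 in chimpanzee 2, from 7 cells, 0.13 in chimpanzee 3 and -0.05 in chimpanzee 4. Its fitted value ran from -0.21 to -0.035 over the alternatives. DCTD had its smallest p with SplintRbar27, at -0.08 ± 0.03 (SE; edgeR, adjusted p = 0.438). In the cells with SplintRbar27 DCTD was 16.6%, 13.6%, 14.3% and 15.6% of the 7 genes in chimpanzee 1 to 4, against 17.6%, 15.6%, 15.9% and 16.0%, lower in 4 of 4 libraries. SplintRbar13 gave -0.08 ± 0.06, also lower in 4 of 4 libraries, and SplintRbar11 gave -0.06 ± 0.05 for DCTD. SplintRbar9 with TENM3 ran from 0.038 without chimpanzee 4 to 0.24 without chimpanzee 1, and SplintRbar26 was -0.013 without chimpanzee 1. For DCTD, SplintRbar27 was -0.047 without chimpanzee 2, and without chimpanzee 3 SplintRbar13 was -0.045 and SplintRbar11 -0.013. None of these values passed, and no barcode was among the 3 smallest p for the same gene in both species.

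In 1 fit over both species 0 of 40 interactions of barcode and species for TENM3 or DCTD passed, beside 0.714% of 140 over all genes (edgeR; 1 of the 40 at an unadjusted p under 0.05, beside 5% of all, and 0 of 40 by DESeq2, beside 8.57%). The smallest p for both genes was with SplintRbar22, at -0.21 ± 0.09 for TENM3 (SE; edgeR, adjusted p = 0.703) and -0.13 ± 0.09 for DCTD (adjusted p = 0.726). This fit scales the classes of both species together, so its values need not equal the difference of the separate fits. Without chimpanzee 2 both turned, to 0.03 and 0.09. Across barcodes, the effects on TENM3 and on DCTD correlated at Pearson's r of 0.28 over 22 barcodes in human and -0.26 over 24 in chimpanzee cells. The effects of a barcode in the 2 species correlated at 0.18 for TENM3 and -0.32 for DCTD over 20 barcodes. All barcodes of a species share the same reference cells, and these correlations are weak and of either sign. With cell barcodes found in more than 1 library left out, 0 pairs of TENM3 or DCTD passed in human, chimpanzee or interaction fits.

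**Figure D5:**
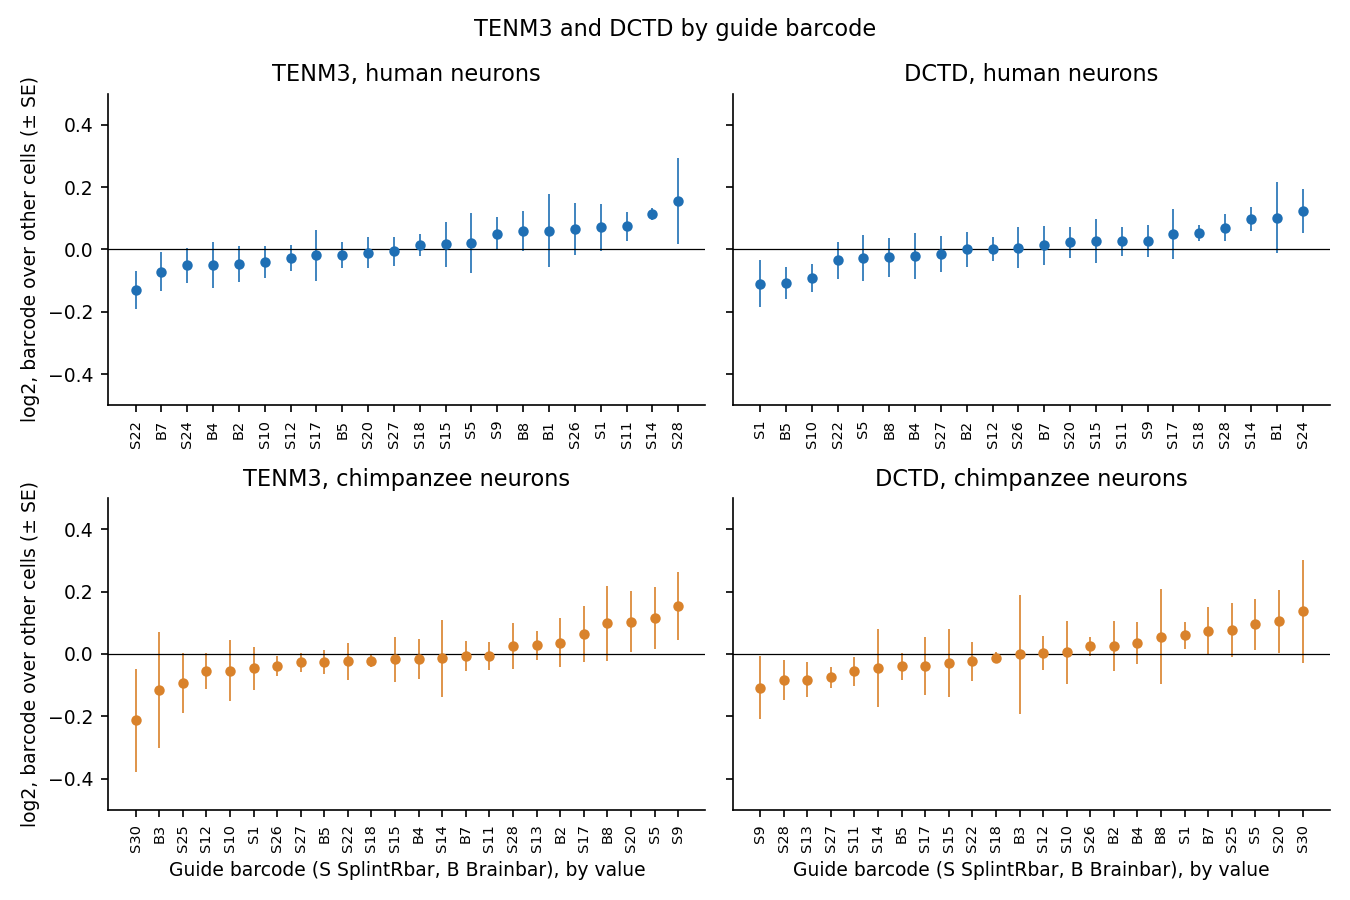
Fitted log2 difference of TENM3 (left) and DCTD (right) between cells with a guide barcode and all other assigned cells, with its SE, in human (top) and chimpanzee neurons (bottom), barcodes ordered by value. All points lie between -0.21 and 0.16, and none passed the threshold after adjustment.

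Cells with an assigned guide differed little from the other cells of their library. TENM3 was 13.4% to 14.8% of the 7 genes in assigned and 12.5% to 14.4% in unassigned human cells, and 19.8% to 25.1% against 20.6% to 23.7% in chimpanzee cells. Assigned cells held more TENM3 in 7 of 9 libraries, by -0.06 to 0.18 on the log2 scale, and more DCTD in 9 of 9, by 0.003 to 0.10. Without the cell barcodes found in more than 1 library the counts were 7 and 8 of 9, with ranges of -0.06 to 0.16 and -0.02 to 0.08. The species difference of TENM3 was thus seen in assigned and in unassigned cells alike, without overlap in either.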

How the data were processed

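The deposited tables hold whole-number UMI counts per cell barcode and gene or guide barcode, per the file headers. The authors' processing notes name fastp, UMI-tools, Bowtie, SAMtools and hg38, and the rule for keeping cells is not given in the sources used here. TENM3, DCTD, the gene lists and the dispersion method were chosen with earlier results of these data known. Libraries held 420217 to 1818477 gene UMIs, and no pair of libraries of the same panel agreed within counting noise (lowest chi-square 185 per degree of freedom). Pairs across the panels, among them chimpanzee 4 and 5 with the most shared cell barcodes, were not compared in this way.

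Gene UMIs of all cells of a library were added up to compare the species. The 7 genes on both panels were fitted over 11 libraries with their own total as the reference, the others within their panel. The test was the quasi-likelihood test of edgeR 4.0.16 (R 4.3.3) with TMM factors, a common dispersion and its earlier method, adjusted by Benjamini and Hochberg over 24 genes, with DESeq2 1.42.0 as an alternative. Genes needed 10 UMIs in at least 5 libraries, or in all libraries of a smaller panel. SEs are the log2 ratio divided by the root of F.

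Ratios, thinned detection, CV and correlation were computed per library for all 7 genes or 21 pairs and compared by exact permutation (two-sided, 462 splits), adjusted over 56 values. A cell was assigned to its leading guide barcode with at least 5 UMIs and 70% of its guide UMIs. Barcodes needed 5 cells in each of 3 libraries, genes 10 UMIs in 6 classes, and library was a block. The methods were tested on simulated data. The changes simulated for guides were larger than any barcode effect on TENM3 or DCTD, so power at those sizes was not tested. The error allowed for a correlation was larger than most values of the pair.

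TENM3 and DCTD are named throughout, barcodes by the 3 smallest p per gene and species and the 2 smallest interactions, and like genes by the 2 highest median correlations. The labels number the screens, and both species have libraries in each. The screen difference of the 7 genes' log2 shares correlated at 0.68 between the species. Alternatives were other factors and references, filters, thinning depths, assignment rules, single screens, a replicate block and each library left out. Those chosen after seeing the data left out cell barcodes found in more than 1 library, human 6 and chimpanzee 5 together for values tested by permutation, or AKAP6 from the correlation, used a trend of the spread, or took single screens for detection, spread and correlation.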

Additional observations from a re-analysis of the deposited data

Results flagged for a closer look

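In 24 groups of libraries, by species and measure, 5 held a library far from the rest by Dixon's criterion, which chance alone meets in about 1 in 20 groups. Chimpanzee 1 had 65.7 TENM3 UMIs per cell where the other chimpanzee libraries had 17.1 to 26.2, and 52.7 DCTD UMIs per cell where the others had 12.8 to 19.7. Its median cell had 272 UMIs of the 7 genes, the most of all libraries, and without it the log2 ratio of human over chimpanzee was -0.58 for TENM3 and 0.09 for DCTD.

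Human 1 had the highest DCTD share of the human libraries, 17.4% where the others had 14.2% to 15.3%. Without human 1 the DCTD log2 ratio between the species was -0.06 in place of 0.04. Human 3 had the highest normalized TENM3 count of the human libraries, 156 per 1000 where the others had 135 to 140, and without it the TENM3 log2 ratio was -0.67.

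The correlation between cells of TENM3 and DCTD was 0.27 in human 6 and -0.07 to 0.05 in the other human libraries. With AKAP6 left out of the shares it was -0.13 in human 6 and -0.19 to 0.05 in the others, so human 6 no longer stood apart. Human 6 also had the lowest TENM3 and DCTD spread of the human libraries and 3 cells with an assigned guide. Whether these values are linked was not tested.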

How the results depend on the processing

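TENM3 kept its direction and its call in 26 of 26 alternatives of the fit, from -1.07 to -0.41. DCTD was negative by DESeq2 (-0.028), with RLE factors (-0.028), with plain totals (-0.069), in panel 1 (-0.25), in panel 2 (-0.41, passing) and in screen replicate 2 (-0.029), passed as positive without AKAP6 in the total (0.22), and ranged from -0.058 to 0.085 when 1 library was left out. With a replicate block of the screen the log2 ratios were -0.59 for TENM3 and 0.024 for DCTD. With species permuted within screen and panel, the same replicate block for single values, the DCTD CV difference of -0.039 passed (exact permutation test, adjusted p = 0.0424). No other call changed with the replicate block. The TENM3 to DCTD ratio did not pass in screen replicate 1 (-0.58), in screen replicate 2 (-0.64) or without human 6 and chimpanzee 5 (-0.64), where few splits limit p. Thinned TENM3 detection did not pass in screen replicate 1 (-1.48 percentage points), in screen replicate 2 (-1.54) or without these 2 libraries (-1.55), again with few splits, or unthinned (-1.05). As shares of all genes of a panel, the differences turned positive for the TENM3 CV (0.033), the DCTD CV (0.097) and the correlation (0.021). DCTD detection turned without chimpanzee 1 or 5, in a range of -0.174 to 0.021 percentage points over libraries left out. Of the named barcode effects, SplintRbar11 with DCTD turned by DESeq2 (0.024), and the SplintRbar22 interaction turned with the looser assignment (2 UMIs, 50%) for TENM3 (0.092) and DCTD (0.125), and with a chimpanzee library left out (ranges -0.27 to 0.026 and -0.16 to 0.089). No alternative called TENM3 or DCTD with a barcode, while pairs called over all genes ran from 0 to 4 in chimpanzee and 0 to 3 in interaction fits. The cause of these changes was not tested. Depth limits detection and spread most in human 4, with 28 UMIs of the 7 genes in its median cell.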
